A study of Mus musculus with 4 samples.

Results

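The alveolar type 1 genes described here are 10 transcripts that mark the flat cells of the gas exchange surface: Ager, Hopx, Aqp5, Rtkn2, Pdpn, Cav1, Cav2, Emp2, Akap5 and Spock2. They were chosen by symbol as a list of known type 1 genes, and all 10 were found among the 32289 features of the count tables. Their UMIs (unique molecular identifiers, each standing for 1 captured RNA molecule) were read cell by cell in single-cell 3′ libraries of mouse lung tumours. All animals carried frt-flanked p53 (p53frt), a CreERT2 recombinase at Rosa26 that Flp switches on (Rosa-FSF-CreERT2) and a floxed Hnf4a (Hnf4aflox). Tumours were started by intubation with adenovirus carrying FlpO under the surfactant protein C promoter (mSPC-FlpO), a promoter of alveolar type 2 cells. After 10 weeks the mice received tamoxifen, which activates CreERT2, or vehicle, and 2 weeks later the cells were collected. The vehicle is ethanol in 1 field of the labels and corn oil in another. A portion of each suspension was frozen before depletion, and the remainder was frozen after CD45-positive and CD31-positive cells had been removed on magnetic columns. This gave 4 groups of 1 library each. Where 4 values are given below, the vehicle portions before and after depletion come first, then the tamoxifen portions in the same order. How many animals or tumours were pooled is not given in the sources used here. The portions before and after depletion share their suspension and do not replicate each other, so no p-value was computed and every interval is a 95% interval of counting error only.

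Alveolar type 1 cells are thin, wide epithelial cells through which gas crosses into the capillaries, and alveolar type 2 cells are their cuboidal neighbours that make surfactant and store it in lamellar bodies. Type 2 cells divide after injury and can turn into type 1 cells, passing through a transitional form with high keratins. Lung adenocarcinomas that start from type 2 cells often hold cells with type 1 features, and Hnf4a is a gut and liver regulator that some of these tumours switch on.

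Promoter sequences are shown for 4 of the genes, which form the 2 pairs Hopx with Akap5 and Cav1 with Cav2. Among genes with an entry, these pairs had the highest Pearson's r over epithelial states below. By joint detection in single cells, other pairs had higher ratios. The sequences are the 250 bases before the start of a RefSeq transcript (build GRCm38.p6), written 5′ to 3′ on the gene's strand. The RefSeq table matched 9 of the 10 genes, and Rtkn2 had no entry. Capitals mark matches, on either strand, to GGGCGG (other strand CCGCCC), the GC box bound by SP factors, or to CAAGTG (other strand CACTTG), a core of sites bound by NKX2 factors. The Hopx window holds neither and has no capitals.
Hopx, chr5:77115124-77115373, minus strand: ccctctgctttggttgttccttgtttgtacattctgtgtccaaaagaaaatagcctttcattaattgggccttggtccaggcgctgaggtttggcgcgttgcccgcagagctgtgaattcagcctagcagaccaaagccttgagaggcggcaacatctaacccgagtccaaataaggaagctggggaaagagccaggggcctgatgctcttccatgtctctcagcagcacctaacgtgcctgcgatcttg
Akap5, chr12:76324641-76324890, plus strand: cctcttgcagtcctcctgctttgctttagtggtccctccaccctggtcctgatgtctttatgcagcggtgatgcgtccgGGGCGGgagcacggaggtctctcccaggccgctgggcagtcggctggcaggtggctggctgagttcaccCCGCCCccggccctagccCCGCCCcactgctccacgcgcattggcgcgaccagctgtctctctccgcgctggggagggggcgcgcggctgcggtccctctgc
Cav1, chr6:17306085-17306334, plus strand: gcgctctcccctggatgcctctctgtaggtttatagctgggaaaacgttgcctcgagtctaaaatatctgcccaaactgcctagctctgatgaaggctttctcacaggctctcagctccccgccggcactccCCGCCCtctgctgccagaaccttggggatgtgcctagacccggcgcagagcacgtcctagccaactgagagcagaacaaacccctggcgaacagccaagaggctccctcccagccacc
Cav2, chr6:17280935-17281184, plus strand: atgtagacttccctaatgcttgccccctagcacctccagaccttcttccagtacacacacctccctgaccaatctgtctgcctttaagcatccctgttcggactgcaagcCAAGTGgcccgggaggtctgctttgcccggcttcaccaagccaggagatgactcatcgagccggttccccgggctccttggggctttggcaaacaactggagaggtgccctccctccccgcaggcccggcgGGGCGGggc
The 9 genes had 11 windows in all. The GC box was in 5 of the 11 (Akap5, Aqp5, the Cav1 window shown, Cav2 and Emp2) and in 32.7% of 32851 promoters in the table. The CAAGTG letters were in 1 of the 11, that of Cav2, and in 11.6% of all promoters. A TEAD core, GGAATG (other strand CATTCC), was in none of the 11 and in 12.6% of all promoters. The windows of Hopx and Akap5 differed in base composition, with 52.4% and 70.0% G or C against a median of 52.4% over all promoters. Those of Cav1 and Cav2 were alike, at 59.6% and 62.0%. A match is a description of letters, not a bound site. Hopx and Cav1 each have a further RefSeq start, which is not shown.

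The 4 libraries held 6558 to 7867 cell barcodes, of which 6146 to 7397 passed the filters, with medians of 9389 to 17751.5 UMIs per cell. Pairs of libraries shared 10 to 17 barcodes. Clusters were named from marker genes that include none of the 10, and the epithelial-like class held 971, 6575, 1005 and 7146 cells. Tumour cells were not told apart from other epithelial cells. Hnf4a, the floxed gene, stood at 53.8, 54.6, 85.8 and 82.9 CPM (counts per 1000000 UMIs of the epithelial-like class). It was thus higher in the libraries labelled tamoxifen than in vehicle, against its label. Counts from the 3′ end do not show which exons a transcript carries, so directions below are those of the libraries as labelled.

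In the libraries before depletion, 5 of the 10 genes were highest in epithelial-like cells and the other 5 in another class. A state of mixed epithelial and other cells was left out of the classes. Ager, the receptor for advanced glycation end products, stood in vehicle at 749 CPM in epithelial-like cells and at 80.6 CPM or less in every other named class. Aqp5, a water channel, Emp2, a tetraspan membrane protein, Rtkn2, and Akap5, an anchor of protein kinase A, were likewise highest there. Cav1 and Cav2, which coat caveolae, reached 325 and 168 CPM in endothelial-like cells against 14.2 and 54.5 CPM in epithelial-like cells. Pdpn, the membrane glycoprotein podoplanin, reached 240.5 CPM in monocyte or macrophage-like cells against 39.1 CPM. Hopx, a homeodomain cofactor without DNA contact of its own, reached 204 CPM in T cell-like and 120.1 CPM in NK cell-like cells against 89.4 CPM. Spock2, a matrix proteoglycan, was scarce throughout, at 16.9 CPM in T cell-like and 4.28 CPM in epithelial-like cells. In the library labelled tamoxifen before depletion the same classes were highest for these 5 genes, with 407 CPM of Cav1 and 212 CPM of Cav2 in endothelial-like cells, 228.5 CPM of Pdpn, and 188 CPM of Hopx and 10.4 CPM of Spock2 in T cell-like cells.

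**Figure D1:**
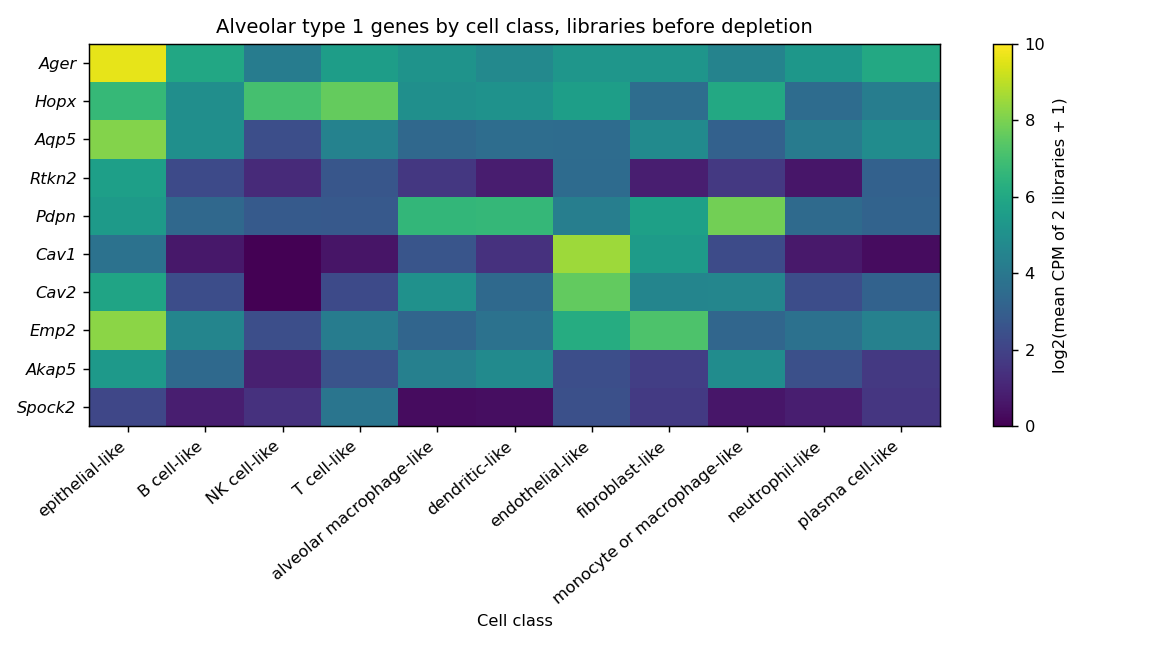
Each row is 1 of the 10 genes and each column a cell class, and colour gives log2 of the mean CPM of both libraries before depletion plus 1. Ager, Aqp5, Emp2, Rtkn2 and Akap5 are brightest in epithelial-like cells, Cav1 and Cav2 in endothelial-like cells, Hopx and Spock2 in T cell-like cells and Pdpn in monocyte or macrophage-like cells.

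Within the epithelial-like class, cells were clustered again without the 10 genes, which gave 24 states of at least 50 cells. States 5 and 9 carried the type 1 markers that were used for naming, with 15 and 14 of 16 seen, and are called alveolar type 1-like. The name rests on the mean standardised level of these markers, which was 1.70 and 1.64. States 11 and 15, without a name, had 12 and 11 of the markers seen but a mean level of 0.11 and 0.05. State 17 was named transitional-like, at a mean level of 1.27 of the transitional markers. These markers were also the best match of states 2, 4, 8 and 21, at 1.64, 1.11, 1.31 and 1.22. Those states were left without a name because a marker of another set was among their leading genes. State 5 (728 cells) was led by Cyp2b10, Mcam and Cap2, and state 9 (587 cells) by Rtkn2, Gm33489 and Sema3a. UMIs pooled over the libraries gave each gene 1 level per state. A state set against the others is a description, without a test. Levels are compared between states for 1 gene at a time, not between genes.

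Ager (chr17:34597862-34600936, plus strand, GENCODE M21 on GRCm38) stood at 3531 CPM in state 9 and 2474 CPM in state 5. The next state had 1124 CPM and the median state 815 CPM. The lowest value, 58.5 CPM, was in state 17, which was named transitional-like and led by Npy, Fbln2 and Inhba. Ager was therefore seen in nearly all epithelial states and was only 4.33 times its median at its highest.

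Rtkn2 (chr10:67979570-68059740, plus strand) had the steepest profile of the 10, with 725 CPM in state 9, 286 CPM in state 5, 38.3 CPM in the next state and 11.6 CPM in the median state. Its highest state was 62.4 times its median. Akap5 (chr12:76324891-76334153, plus strand) ran 394, 215 and 50.3 CPM down the same 3 states, with a median of 15.7 CPM. Hopx (chr5:77086988-77115121, minus strand) also had the same order, at 854, 438 and 203 CPM, with a median of 35.9 CPM. The third of these states, state 4, has no name and was led by Cyp2s1, Ccnd2 and Htra4. Rtkn2 overlaps Gm16212 and Hopx overlaps Hopxos on the other strand, and whether counting used the strand is not given in the sources used here.

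Aqp5 (chr15:99590782-99594829, plus strand) and Pdpn (chr4:143267431-143299564, minus strand) were highest outside the type 1-like states. Both peaked in state 21, a state of 179 cells with no name whose leading genes were the mast cell proteases Tpsab1, Mcpt2 and Mcpt1. Aqp5 stood there at 1196 CPM, against 1040.4 CPM in state 5 and 673 CPM in state 9. Pdpn stood there at 120.3 CPM, against 94.0 CPM in state 9 and 84.8 CPM in state 5. Emp2 (chr16:10281749-10313968, minus strand) was highest in state 5, at 950.3 CPM, with 835 CPM in state 9 and a median of 240.4 CPM. The 2 states were not in this order in every library, since vehicle after depletion had 1001 CPM of Emp2 in state 5 and 1056 CPM in state 9.

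Cav1 (chr6:17306335-17341452) and Cav2 (chr6:17281185-17289115) lie 17219 bp apart on the plus strand of chromosome 6. Cav1 stood at 80.4 CPM in state 9 and 52.0 CPM in state 5, but the transitional-like state 17 came between them at 65.5 CPM. This order rests on pooled UMIs: before depletion Cav1 in state 5 was 83.8 CPM in vehicle and 92.0 CPM in the library labelled tamoxifen, against 81.9 and 75.9 CPM in state 9. Cav2 was highest in state 17, at 161 CPM, with 139.95 CPM in state 9. Thus the state with the lowest Ager was among the highest for both caveolins. Both genes lie opposite Gm15581. Spock2 (chr10:60106219-60135198, plus strand, which also holds Mir6906) was highest in state 5, at 18.2 CPM, and reached 5.42 CPM in state 9.

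**Figure D2:**
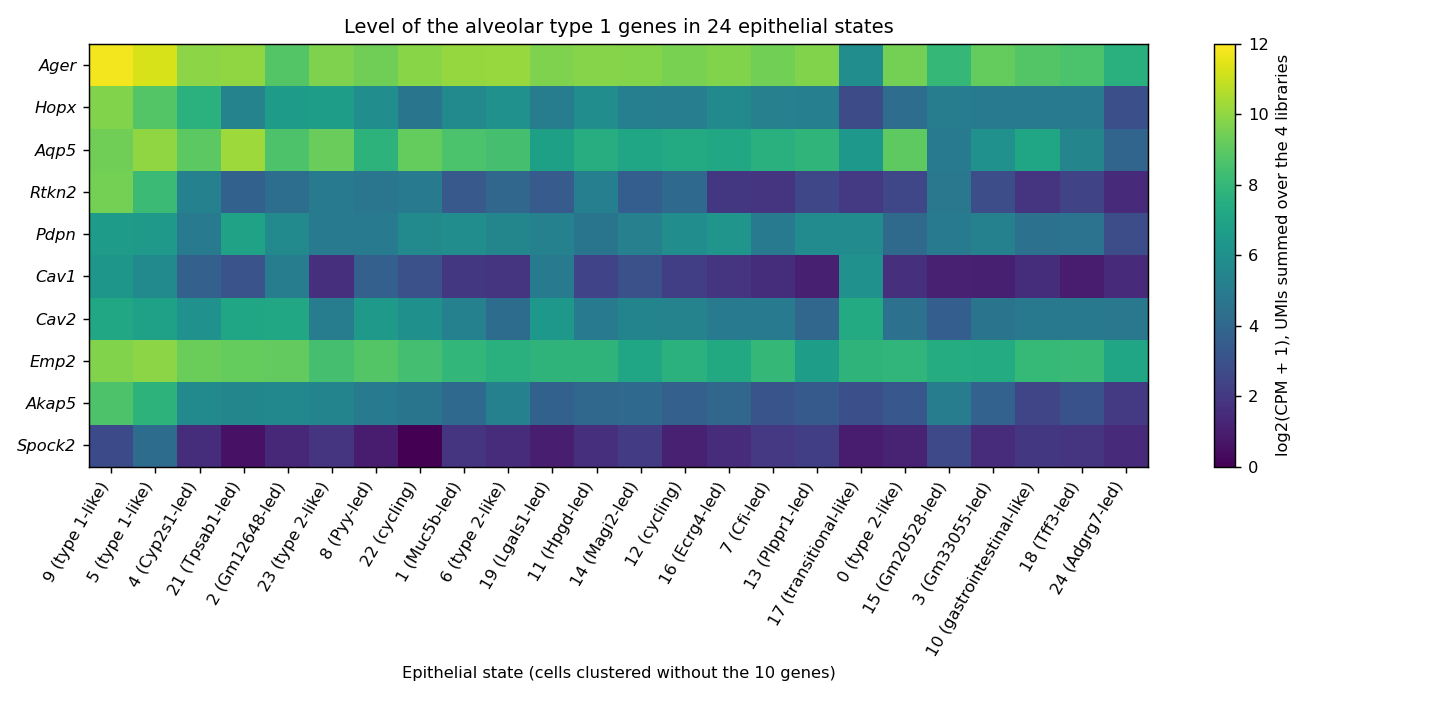
Each row is 1 of the 10 genes and each column 1 of 24 epithelial states, ordered by the mean standardised level of the 10, and colour gives log2(CPM + 1) of UMIs summed over the 4 libraries. Rtkn2, Akap5 and Hopx are brightest in states 9 and 5, Hopx is also bright in state 4, and Ager and Emp2 are bright in most states.

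The share of a gene's epithelial UMIs that came from states 5 and 9 separated the genes in every library, although these states made up 8.96%, 7.44%, 10.4% and 8.87% of epithelial-like cells. Rtkn2 was the most confined, with 78.8%, 56.9%, 77.3% and 72.2% of its UMIs there. Akap5 followed with 59.6%, 39.8%, 54.0% and 45.9%. Hopx had 47.4%, 31.5%, 50.2% and 43.2%, and Cav1 33.7%, 26.1%, 45.2% and 32.2%. Ager had 23.9%, 15.5%, 24.6% and 19.7%, so most Ager RNA came from cells outside the type 1-like states. Aqp5, Emp2, Cav2 and Pdpn had between 9.53% and 20.3% in any library. Spock2, from few UMIs, had 47.2%, 25.5%, 20% and 18.6%. Each of these shares was larger before depletion than after it within the same treatment, so values moved with the portion as well as with the treatment.

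The makeup of the type 1-like class differed between the treatments. State sizes depend on the clustered genes, some of which may differ between treatments, and are given as makeup only. State 5 held 7.52% (5.94 to 9.36), 5.46% (4.92 to 6.04), 3.58% (2.52 to 4.92) and 3.64% (3.22 to 4.10) of epithelial-like cells. State 9 held 1.44% (0.790 to 2.41), 1.98% (1.65 to 2.34), 6.87% (5.38 to 8.61) and 5.23% (4.73 to 5.78). State 5 was the larger in both vehicle libraries and state 9 in both libraries labelled tamoxifen. Intervals are exact Clopper-Pearson intervals, and with 1 library per group the spread between animals is unknown.

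Across the 24 states the genes fell into looser and tighter pairs. Over log2(CPM + 1) of pooled UMIs, Pearson's r was 0.93 for Rtkn2 with Akap5, 0.90 for Cav1 with Cav2, 0.89 for Hopx with Akap5 and 0.85 for Hopx with Rtkn2. It was 0.12 for Ager with Cav2 and −0.13 for Cav2 with Spock2, the lowest of the 45 pairs. States share libraries and depth, so these values are descriptions. Joint detection in single cells, each thinned to 5000 UMIs, gave a partly different order. Rtkn2 and Akap5 were seen in the same epithelial-like cell 3.83 to 4.59 times as often as the product of their shares over the 4 libraries. The ratio was 3.58 to 6.34 for Cav1 with Spock2, from 3 to 22 joint cells a library, and 4.21 to 5.01 for Rtkn2 with Cav1. For Cav1 with Akap5 it was 3.38 to 3.91, for Hopx with Akap5 2.89 to 3.39 and for Cav1 with Cav2 2.53 to 2.92. It was at most 1.02 for Ager with Emp2, which are seen in many more cells. Inside the type 1-like states the ratios were lower, at 1.13 to 1.44 for Rtkn2 with Akap5, 1.29 to 1.48 for Rtkn2 with Cav1 and 1.15 to 1.35 for Hopx with Akap5. Genes seen in many cells leave a ratio less room above 1. In vehicle before depletion Rtkn2 was in 52.4% and Akap5 in 57.3% of type 1-like cells. Outside these states the ratio was 1.72 to 4.02 for Rtkn2 with Akap5, from 3 to 83 joint cells a library. It was 2.61 to 2.94 there for Hopx with Akap5 and 2.53 to 3.21 for Cav1 with Cav2.

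The genes outside the list whose profile over the 24 states was closest to the mean of the 10 were ranked among 11668 genes. Clic5, an intracellular channel protein that is itself a type 1 marker used for naming, had r = 0.91. Pmp22, a relative of Emp2, and Mmp11, a metalloproteinase, each had 0.87, and Slc44a2, a choline transporter, had 0.87. They were followed by 9030404E10Rik at 0.85, Itgb6, an integrin subunit and transitional marker, at 0.83, Wfdc1 at 0.83 and Apbb1 at 0.82. Gm16212, which overlaps Rtkn2 on the other strand, and Efna1 both had 0.81.

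Most epithelial-like cells carried some type 1 RNA. Of 903, 6134, 976 and 6778 cells with at least 5000 UMIs, 83.6% (81.0 to 86.0), 86.6% (85.7 to 87.4), 81.4% (78.8 to 83.7) and 82.1% (81.2 to 83.1) had a UMI of at least 2 of the 10 genes after thinning. Endothelial-like cells reached 44.1%, 62.0%, 60.5% and 58.1% by the same count, with Cav1 and Cav2 among their own genes. A count of at least 5 genes separated the classes further, with 13.0%, 14.0%, 15.2% and 12.8% of epithelial-like cells and 1.38%, 0%, 0.75% and 1.16% of endothelial-like cells. The 0% is 0 of 150 cells, which allows a share of up to 2.0%. Before thinning the median depths were 25365, 18309, 28522 and 16853.5 UMIs in epithelial-like and 14047, 8416.5, 10414 and 7308 UMIs in endothelial-like cells. Cells of state 9 had 6.20 of the 10 genes on average, those of state 5 had 5.03, and the mean was 4.02 or less in every other state.

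Single genes differed as much. A UMI of Ager was seen in 81.0%, 83.1%, 82.3% and 83.8% of thinned epithelial-like cells and in 1.38%, 11.3%, 1.49% and 16.3% of endothelial-like cells. A UMI of Rtkn2 was seen in 7.97%, 7.58%, 11.7% and 9.74% of epithelial-like cells and in at most 1.49% of endothelial-like cells. A UMI of Akap5 was seen in 10.6%, 10.4%, 13.7% and 11.2%, and in at most 2.24% of endothelial-like cells. Cav1 was the reverse, with 4.65%, 4.34%, 4.20% and 4.35% of epithelial-like and 67.6% to 71.3% of endothelial-like cells.

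Sftpc, the surfactant protein C gene that marks type 2 cells, did not separate cells as present or absent. A Sftpc UMI was in 94.9% to 99.9% of thinned epithelial-like cells, but also in 64.8%, 100%, 74.6% and 100% of endothelial-like cells. Cells with a Sftpc UMI and at least 2 type 1 genes were 1.006, 1.0004, 0.9996 and 0.9998 times as common as the product of both shares. The level of Sftpc was therefore used. In every library its median was highest in cells with 3 of the type 1 genes and lower with 5 or more. In the vehicle library after depletion it was 67 of 5000 UMIs in cells with none of the genes, 283 with 2, 390 with 3 and 79 with 5 or more. With 5 or more genes the median was 99, 79, 44.5 and 82 UMIs over the libraries, and the lower quartile 3, 12, 5 and 10. Endothelial-like cells had medians of 1, 7, 1 and 6, so cells that should lack the gene held more Sftpc UMIs after depletion than before it.

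**Figure D3:**
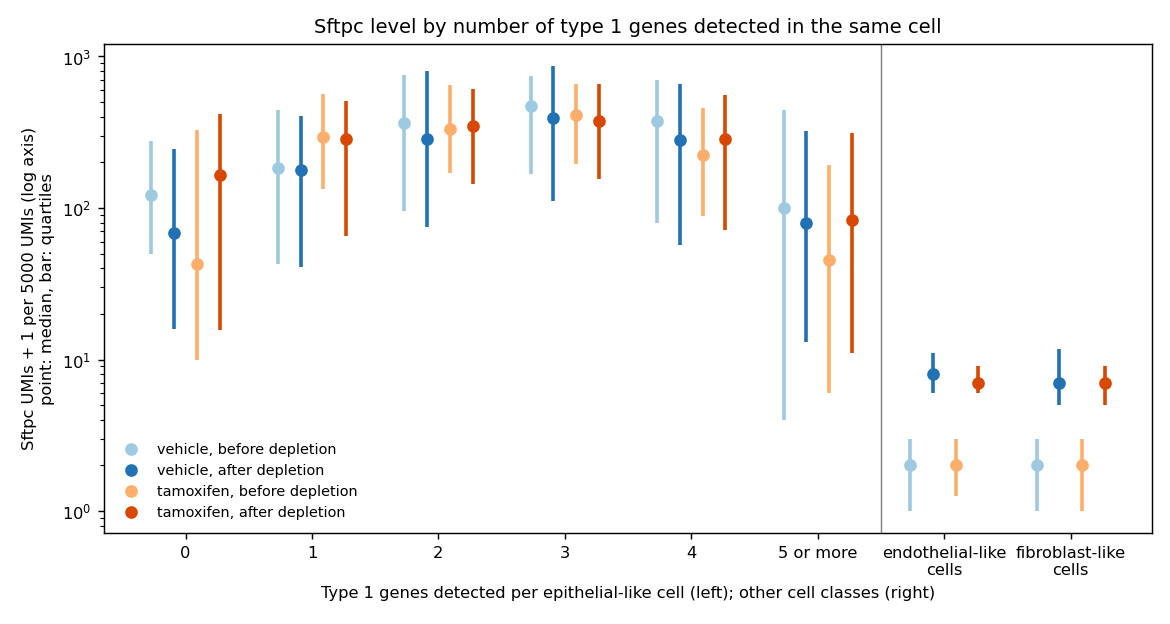
The y axis (log) gives Sftpc UMIs + 1 among the 5000 UMIs of a thinned cell, as median (point) and quartiles (bar), by the number of type 1 genes seen in the same epithelial-like cell and for endothelial-like and fibroblast-like cells. In all 4 libraries the median is highest at 3 genes and lower at 5 or more, and all epithelial medians lie above those of the other classes.

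A level of over 100 Sftpc UMIs of 5000 (2%) was then used to separate cells, a second choice made after a first level had been seen. The first was the 99th percentile of endothelial-like and fibroblast-like cells of each library, which came to 99, 553, 317 and 949 UMIs. It was replaced because a few such cells set it, and because in the library labelled tamoxifen after depletion it held only 31.9% of type 2-like cells. Over 100 UMIs were 0.766%, 6.42%, 3.26% and 3.31% of the endothelial-like and fibroblast-like cells. The fixed level held 96.9% to 98.1% of the type 2-like cells of a library. Among type 1-like cells it held 58.5% (47.1 to 69.3), 49.0% (44.3 to 53.7), 21.6% (13.9 to 31.2) and 38.7% (34.7 to 42.8). With the first level these shares were 58.5%, 23.6%, 7.22% and 2.80%, so the size of the share rests on the level. Vehicle was above the library labelled tamoxifen of the same portion by the fixed level. The first level cannot decide this order, because it was itself higher in the library labelled tamoxifen (317 against 99 UMIs, then 949 against 553). By the fixed level the order did not hold inside the states after depletion. State 5 had 59.9% in vehicle and 61.0% in the library labelled tamoxifen, and state 9 had 19.8% and 23.0%. Cells between 50 and 200 UMIs, near the level, numbered 231 of 1195 type 1-like cells. The share also follows the states: it was 59.6% in state 5 (393 of 659 cells) and 21.5% in state 9 (115 of 536), and state 5 was the larger in vehicle. Alternatives for the level and the clustering moved the pooled share of 42.5% to between 14.7% and 51.5%.

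Rtkn2, Akap5, Hopx, Cav1 and Cav2 were seen with high Sftpc less often than the product of shares in every library, and Ager more often. Observed over expected in epithelial-like cells was 0.72, 0.58, 0.44 and 0.58 for Rtkn2 and 0.82, 0.72, 0.57 and 0.72 for Akap5. It was 0.80, 0.77, 0.71 and 0.81 for Hopx and lowest for Cav1, at 0.44, 0.45, 0.20 and 0.35. Cav2, although broad over the states, ran between 0.69 and 0.74. Ager was between 1.07 and 1.09, Aqp5 between 1.02 and 1.08 and Pdpn between 0.90 and 1.03. Emp2 ran between 0.91 and 0.95, with intervals below 1 in 3 of the 4 libraries. Spock2, seen in few cells, ran between 0.54 and 0.93, with intervals that included 1. The interval of Akap5 in vehicle before depletion, 0.62 to 1.06, also did. Outside the type 1-like states the ratios were 0.73, 0.60, 0.78 and 0.75 for Rtkn2. They were 0.89, 0.79, 0.82 and 0.83 for Akap5 and 0.80, 0.80, 0.86 and 0.93 for Hopx. These intervals included 1 before depletion and lay below 1 after it. With the first level, over all epithelial-like cells, the ratios for Rtkn2 were 0.71, 0.40, 0.26 and 0.27. Those for Ager were 1.07 to 1.09, so both stayed on the same sides of 1. Pdpn did not keep its values near 1 with that level, at 1.02, 0.71, 0.83 and 0.50. Cells with at least 2 of Hopx, Rtkn2 and Akap5 and over 100 Sftpc UMIs were nonetheless 4.10%, 3.64%, 3.89% and 4.16% of epithelial-like cells, against 6.04%, 6.003%, 8.89% and 6.89% by the product.

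Inside state 5, cells above and at or under the Sftpc level differed, with all libraries pooled, in most of the 10 genes. Rtkn2 stood at 196 CPM (185 to 208) above it and 405 CPM (385 to 426) at or under it. The 25 vehicle cells at or under the level before depletion widened this gap, with 1285 CPM against 246 CPM above it. After depletion Rtkn2 was 184 and 272 CPM in vehicle and 208 and 285 CPM in the library labelled tamoxifen. Hopx stood at 285 and 657 CPM over all libraries, and Cav1 at 25.1 and 92.8 CPM. Ager, at 2183 and 2799 CPM, and Emp2, at 803 and 1169.95 CPM, differed less. Sftpc, on which the cells were split, took 113407 CPM above the level and 3450 CPM at or under it. CPM share a fixed total, so more Sftpc by itself lowers the CPM of every other gene. The part of this in the gaps was not tested. In the library labelled tamoxifen after depletion the intervals overlapped for Ager (1957 and 2015 CPM) and Pdpn (77.7 and 70.2 CPM). They also overlapped there for Akap5 (176 and 189 CPM) and Aqp5 (970 and 898 CPM). In vehicle after depletion they overlapped for Pdpn (68.1 and 86.1 CPM), Cav2 (99.5 and 125 CPM) and Aqp5 (1138 and 1131 CPM). Over all libraries Aqp5 was 1042 CPM (1015 to 1069) against 1029 CPM (997 to 1062), with overlapping intervals. Cells above the level still had more Rtkn2 than the 11.6 CPM and more Ager than the 815 CPM of the median state, but less Pdpn (73.0 CPM) and Aqp5 than state 21 and less Cav1 and Cav2 (90.6 CPM) than state 17. In state 9, Rtkn2 stood at 404 CPM above and 832 CPM at or under the level, and Akap5 at 322 and 423 CPM. Lamp3, a lamellar body gene of type 2 cells, moved with Sftpc, at 579.9 and 117 CPM in state 5 and 67.0 and 17.8 CPM in state 9. Doublets of a type 1 and a type 2 cell would also carry both programmes. The median UMIs above and at or under the level were 12169 and 11914 in state 5 and 15748 and 11846 in state 9. The median doublet score, with cells over 0.25 already removed, was 0.034 and 0.043 in state 5 and 0.045 and 0.030 in state 9. The 90th percentile of the score was higher above the level in both states, at 0.080 and 0.070 in state 5 and 0.108 and 0.057 in state 9. The part of doublets in these values was not tested. Hnf4a stood at 3.94 and 11.3 CPM in state 5 and at 36.4 and 35.6 CPM in state 9.

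**Figure D4:**
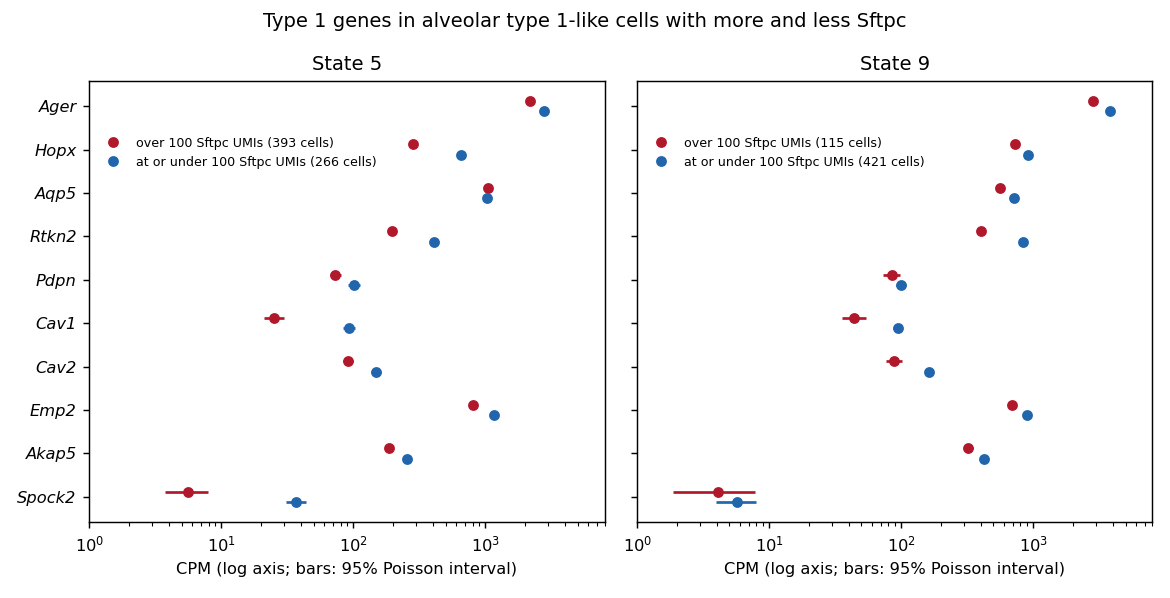
Points give CPM (log axis) of each gene in cells with over 100 Sftpc UMIs of 5000 (red) and in cells at or under it (blue), in states 5 and 9 over all libraries, and bars are 95% Poisson intervals. Red lies left of blue for all genes but Aqp5 in state 5, where the points sit at 1042 and 1029 CPM, and the bars of Pdpn and Spock2 overlap in state 9. CPM share a fixed total, so the higher Sftpc of the red cells by itself lowers their other genes.

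The treatment comparison asks whether the type 1 genes differ after tamoxifen, given to delete Hnf4a in tumour cells. A gene was compared where it reached 10 CPM in either library of a pair, and called where it also differed at least 2-fold. Of the 10 genes 9 reached the minimum, all but Spock2, and none was called in either pair. Over all genes 0.58% of 9316 were called higher and 1.38% lower before depletion, and 0.513% higher and 1.19% lower of 9160 after it. A count of 0 of 9 is not apart from these shares. The median log2 ratio of the 10 genes, tamoxifen over vehicle, was 0.15 before and −0.06 after depletion, against −0.04 and 0.01 for all genes compared.

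Below the 2-fold mark, Rtkn2 and Aqp5 had the widest ratios of the compared genes that held their direction in both pairs. Rtkn2 stood at 42.5, 25.2, 55.9 and 45.4 CPM, higher in the library labelled tamoxifen by a log2 ratio of 0.39 (0.29 to 0.50) before depletion and 0.82 (0.79 to 0.91) after it. Both vehicle values lie below both values labelled tamoxifen, but 42.5 and 45.4 CPM are close, and the vehicle portions alone differed by −0.73 after over before depletion. Aqp5 stood at 324, 409, 244 and 267 CPM, with log2 ratios of −0.41 (−0.45 to −0.36) and −0.61 (−0.63 to −0.60). Both vehicle values lie above both values labelled tamoxifen, but the vehicle portions alone differed by 0.33 after over before depletion. Emp2 stood at 316, 369, 297 and 288 CPM, with ratios of −0.09 and −0.36. Its vehicle portions alone differed by 0.22, more than the ratio before depletion. Portions of a treatment share their suspension, so values that do not overlap are not replicates apart. Akap5, at 37.1, 32.2, 45.3 and 34.6 CPM, had ratios of 0.28 and 0.10.

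Ager, Hopx and Pdpn turned direction between the pairs. Ager stood at 749, 878, 849 and 845 CPM, with ratios of 0.18 and −0.06. Hopx stood at 89.4, 84.5, 117 and 77.6 CPM, with ratios of 0.39 and −0.12. Pdpn stood at 39.1, 43.5, 45.7 and 41.5 CPM (0.22 and −0.07) and Cav1 at 14.2, 10.8, 11.4 and 10.9 CPM (−0.30 and 0.01). The interval of Cav1 after depletion, −0.10 to 0.11, included 0. Cav2 stayed within 53.1 to 59.1 CPM, with ratios of 0.12 and 0.01. Spock2 was counted 125, 349, 80 and 296 times, or 4.28, 2.55, 2.52 and 2.19 CPM.

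**Figure D5:**
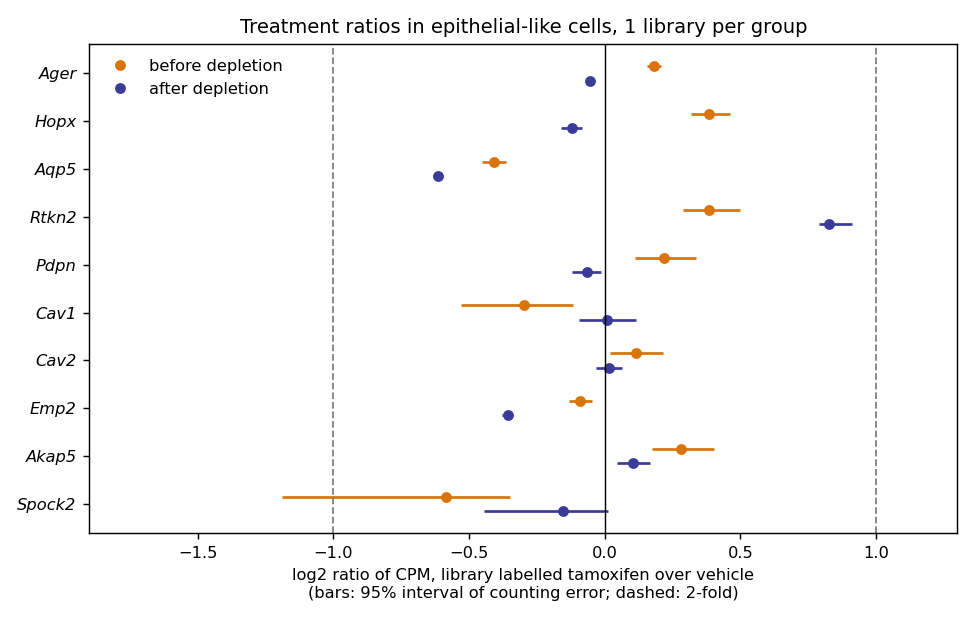
Points give the log2 ratio of CPM in epithelial-like cells, library labelled tamoxifen over vehicle, for each gene before (orange) and after (blue) depletion, with bars for the 95% interval of counting error and dashed lines at 2-fold. No gene that reached 10 CPM lies beyond the dashed lines, Rtkn2 lies right of 0 and Aqp5 left of 0 in both pairs.

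In lists of related genes, 1 gene was called. Among 16 other type 1 genes none was called in either pair, with medians of 0.00 and 0.02. The most abundant, Lmo7, a cytoskeletal adaptor, had −0.58 and −0.66, and Timp3, an inhibitor of metalloproteinases, 0.02 and 0.25. None of 14 type 2 genes was called, with medians of −0.12 and −0.02. Sftpc had 0.07 and 0.06 and Sftpa1, another surfactant protein, 0.01 and 0.01. The lowest, Napsa, a protease that processes surfactant proteins, had −0.98 and −0.93, just short of the 2-fold mark, and Lyz2, a lysozyme, −0.60 and −0.47. Both were named after their values were seen. None of 7 regulators of the type 1 state was called, with medians of −0.29 and −0.00. Nkx2-1, the lung lineage factor, had 0.06 and 0.14, and Klf5 −0.40 and −0.31. Of 7 targets of YAP and TAZ, which act in type 1 fate, Ccn2 was called lower before depletion (69.1 against 25.6 CPM, log2 ratio −1.40) but had 0.09 after it, and Ccn1 had −0.36 and −0.54.

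The ratio of Rtkn2 was not the same in all cells. Inside the type 1-like states it stood at 584 CPM in vehicle and 683 CPM in the library labelled tamoxifen before depletion (log2 ratio 0.23), and at 308 and 569 CPM after it (0.89). Without these states the ratio after depletion was 0.21 (11.4 and 13.4 CPM) in place of 0.82. Before depletion Rtkn2 outside them stood at 9.59 CPM in vehicle and 13.6 CPM in the library labelled tamoxifen, so the difference was not confined to them. By single state, Rtkn2 was higher in 3 of 6 before depletion and in 15 of 19 after it (median 0.38). In the latter the interval lay above 0 in 6 states and below 0 in 3. State 5 held most type 1-like cells in vehicle (73 of 87 and 359 of 489) and state 9 most in the libraries labelled tamoxifen (69 of 105 and 374 of 634). State 9 alone, after depletion, had 482 and 790.1 CPM (0.71), while state 5 alone had 229 and 247 CPM (0.11). Before depletion the vehicle library stood apart in state 5, with 579 CPM of Rtkn2 in 73 cells against 229 to 249.9 CPM in the other 3 libraries, so the ratio in state 5 had the opposite direction there, at −1.21. The 25 of those cells at or under the Sftpc level had 1285 CPM of Rtkn2 and 4459.8 CPM of Ager.

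Aqp5 and Emp2 were lower in most states, which was not particular to them after depletion. Where both libraries held enough cells, Aqp5 was lower in the library labelled tamoxifen in 6 of 6 states before depletion and in 15 of 19 after it. Its ratio varied widely, from −1.84 in state 15 to 0.29 in state 3 after depletion. It was −1.24 and −1.14 in state 1, led by Muc5b, against −0.15 and −0.18 in state 0, led by Scgb1a1. Emp2 was lower in 4 of 6 and in 19 of 19, with a median of −0.32 after depletion and a range of −0.80 to −0.03. Pdpn was lower in 5 of 6 and 15 of 19, although it was higher over all cells before depletion. Ager was lower in 2 of 6 and 14 of 19, Hopx in 3 of 6 and 13 of 19, and Akap5 in 3 of 6 and 12 of 19. Rtkn2 was lower in only 4 of 19 after depletion. In the type 2-like states Hopx (26.4 and 50.6 CPM, then 27.8 and 41.1 CPM) and Akap5 (14.4 and 27.1 CPM, then 12.03 and 22.2 CPM) were higher in the library labelled tamoxifen. Their log2 ratios there were 0.91 and 0.55 for Hopx and 0.87 and 0.83 for Akap5. State 0, which held 324 of 393 and 169 of 217 of these cells before depletion, had the opposite direction in that pair, at −0.40 for Hopx and −0.73 for Akap5. After depletion state 0 had 0.49 and 0.41. Sftpc over both type 1-like states stood at 57013 and 19348 CPM before and 56280 and 37404 CPM after depletion (log2 ratio −0.59). Within the states after depletion the ratio was −0.15 in state 5 (74689 and 67146 CPM) and 0.11 in state 9 (15798 and 17078 CPM). Before depletion Sftpc was lower in the library labelled tamoxifen inside both states. State 5 had 67588 CPM in vehicle and 37831 CPM in that library (−0.84). State 9 had 13758 CPM, from 14 vehicle cells, and 10468 CPM. The part of the makeup of the class in the lower pooled level was not tested.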

How the data were processed

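Single-cell 3′ libraries (10x Genomics, version 3 chemistry) of viable sorted cells were analysed from the deposited UMI counts per gene and cell, which are raw whole-number counts. Per the submitters' processing notes, reads were processed with Cell Ranger 7.2.0 on mm10, while the file headers name Cell Ranger 7.0.1. Alignment options, intron use and strand are not given in the sources used here. One further allele of the genotype label is not reported here, and 4 features that are not mouse genes were left out.

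A barcode was kept from 200 genes up and with no more than 20% of its UMIs mitochondrial, and 81 to 140 cells per library with a doublet score over 0.25 were removed. The score came from a simulation of the Scrublet kind written for this work. Cells were clustered with Leiden at resolution 1 (2000 variable genes, 15 neighbours) and named where at least 3 markers were each seen in 10% of cells. Epithelial-like cells were clustered again without the 10 genes. Leaving out 1 mixed state, and part of the naming rule, were chosen after seeing the data. UMIs summed per library and class gave CPM with Poisson intervals. Log2 ratios used a pseudocount of 1 CPM, so a ratio understates changes of low genes, and their intervals are conditional binomial without the pseudocount. Shares used cells thinned to 5000 UMIs, leaving out shallower cells, with Clopper-Pearson intervals. A count of 0 was taken to allow up to 3 counts. The 2-fold rule and the ratio of joint detection were run on simulated data. Clustering, naming, the doublet score, thinning and the Sftpc level were not.

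The genes and gene lists were chosen with earlier results of these data known. Named genes are the 10, Hnf4a, Sftpc, list genes that were called, the 2 most abundant of each list, the 10 nearest profiles and the 3 leading genes of a state. Other genes of surfactant cells beside Sftpc levels, such as Lamp3, were named after their values were seen. Alternatives were other filters, doublet treatment, clustering, thinning, pseudocount, fold and scaling (TMM of edgeR 4.0.16). Tools were scanpy 1.11.5, igraph 0.11.9, scipy 1.17.1 and numpy 2.4.6.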

Additional observations from a re-analysis of the deposited data

How the results depend on the processing

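No paired analysis was possible because each group holds 1 library. The count of type 1 genes at least 2-fold apart was 0 under every other alternative run in both pairs. With 1.5-fold it was 2 of 9 after depletion (Rtkn2 higher, Aqp5 lower) and 0 before it. Over all genes 1.5-fold called 203 higher and 281 lower of 9160 after depletion, and 181 higher and 352 lower of 9316 before it. From a count of 2 no conclusion is drawn. Of 220 log2 ratios of the 10 genes under alternatives, 179 lay inside the interval of the reported value and 41 outside, from −0.77 to 0.85. The sign of 2 ratios turned before depletion with the mean over cells. After depletion 3 turned without the type 1-like states, 2 with the gate on each cell, 2 without the state with the most Lyz1 and 1 without doublet removal. The share of epithelial-like cells with at least 2 of the genes followed depth: 56.0%, 61.1%, 53.1% and 54.3% at 2000 UMIs, and 95.2%, 95.5%, 96.7% and 95.004% without thinning. At least 3 genes gave 55.6%, 61.4%, 55.3% and 54.2%. Without the type 1-like states it was 85.7% in vehicle and 80.6% in the library labelled tamoxifen after depletion, and with at most 10% mitochondrial UMIs 83.2% in the latter. Joint detection with over 100 Sftpc UMIs was 1.02 in vehicle after depletion. The summed level of the 10 genes in type 1-like cells, 6444 CPM, was 6239 without doublet removal, 7174 with the genes kept in the clustering, and 5644 and 7464 at resolution 0.5 and 2. The pooled share of type 1-like cells over 100 Sftpc UMIs, 42.5%, was 46.5%, 25.7%, 33.1% and 26.0% under the same alternatives, 51.5% and 32.2% over 50 and 200 UMIs, and 14.7% with the percentile level. With the genes kept in the clustering, 977 cells were type 1-like in place of 1315, and 915 were shared. The causes were not tested. One library per group leaves the spread between animals unknown.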
